A study of Mus musculus with 12 samples.

Results

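The genes described here encode the machinery that tethers and fuses transport vesicles between the endoplasmic reticulum (ER) and the Golgi apparatus. They were taken by name from a fixed list of 56 genes and matched by symbol to the Ensembl identifiers of the deposited count table. The 56 genes are among 46603 in the table, and all 56 passed the filter on low counts that left 13167 genes for testing. The list holds 4 organisers of ER exit sites, 8 golgins and stacking proteins, 10 TRAPP subunits and 10 SNAREs. It also holds the SNARE recycling proteins Napa and Nsf, 3 subunits of the NRZ tether, 8 COG subunits, 4 Rab GTPases, 5 Arf GTPases and ArfGAPs, and the transcription factors Creb3 and Creb3l2. Coat subunits are not in the list. Gene positions are from the GENCODE M21 annotation on GRCm38, the build of the counts, and log2 fold changes are given with their SE.

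Proteins leave the ER in COPII-coated vesicles that form at ER exit sites, and COPI-coated vesicles carry escaped ER proteins and recycled receptors back. Rab and Arf GTPases mark each membrane, long coiled-coil golgins and multisubunit tethers such as TRAPP, NRZ and COG catch the vesicle, and SNARE proteins on the opposing membranes zip together to fuse them. Nsf, an ATPase, then pulls the spent SNARE complexes apart with the help of the adaptor α-SNAP, encoded by Napa. TMED10 belongs to the p24 family of cargo receptors that cycle in these vesicles.

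Mouse CD8 T cells of the OT-I/Cas9 kind, with a T cell receptor and a Cas9 nuclease both supplied by transgenes, were profiled by RNA sequencing in 6 groups of 2 libraries. The study compared loss of Tmed10 with AGN192403, a small molecule that it used as a TMED inhibitor, in cells before and after activation. The activated groups were cells given an sgRNA against Tmed10 and water (activated KO), cells with a control sgRNA and AGN192403 at 100 µM (activated AGN192403) and cells with the control sgRNA and water (activated control), all placed on antibody to CD3 at 2.5 µg/mL. The same 3 kinds of cell without that antibody were the resting groups, and treatment lasted 24 h. All cells had been stimulated in culture before the guides were delivered and were then grown with IL-2, IL-7, IL-15 and puromycin, so resting means not stimulated again. The KO cells were a pool selected with puromycin and not a clone. AGN192403 was given only to cells with the control sgRNA, and the KO and AGN192403 comparisons therefore share their control libraries. The labels do not say whether 2 replicates came from separate cultures or spleens, so the p-values may measure technical spread only.

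Libraries held 9089350 to 16481840 counted reads, and values per library are given as CPM, the counts scaled to a common library size by TMM. Tmed10 itself had 55.9 and 58.3 CPM in activated KO cells, against 128 and 125 CPM in activated control cells, and 61.5 and 65.1 CPM in resting KO cells, against 116 and 117 CPM in resting control cells. Reads of an edited transcript still count, so these levels check the labels and do not measure the protein. CD8 T cell markers (12 of 12 tested) summed to 14274 to 25443 CPM per library, while the summed markers of CD4 T cells, B cells, myeloid cells, NK cells and the erythroid and platelet lineages stayed at or below 189 CPM each. Several of these sums moved with the groups. The CD8 sum was 22584 and 23641 CPM in activated KO cells and 17327 and 18758 CPM in activated AGN192403 cells, against 24252 and 25443 CPM in activated control cells, and spanned 14274 to 16191 CPM in resting cells. The CD4 sum (4 of 5 markers tested) was 70.2 and 73.5 CPM in activated KO cells and 95.8 and 89.9 CPM in activated AGN192403 cells, against 59.99 and 55.2 CPM in activated control cells, and spanned 84.1 to 98.1 CPM in resting cells. The NK sum (1 of 5 tested) was 102 and 106 CPM in activated KO cells and 110.0 and 117 CPM in activated AGN192403 cells, against 82.1 and 83 CPM in activated control cells. At rest it was 158 and 164 CPM with the KO and 129 and 137 CPM with AGN192403, against 163 and 174 CPM in controls. The B cell sum (2 of 7 tested) was 31 and 34 CPM in activated KO and 33.9 and 39.3 CPM in activated AGN192403 cells. Activated control cells had 29.7 and 33.1 CPM. At rest the B cell sum was 164 and 162 CPM with the KO and 138 and 143 CPM with AGN192403, against 137 and 144 CPM in controls. The myeloid sum was 166 and 169 CPM in activated KO cells and 176 and 189 CPM in activated AGN192403 cells, against 129 and 134 CPM in activated control cells, with 9 of its 15 markers tested and none at 0 in every library. In resting cells it was 82.7 and 84.4 CPM with the KO and 73.7 and 75.4 CPM with AGN192403, against 91.4 and 95.1 CPM in controls. A sum of 6 nuclear long RNAs, 4 of them tested, was 1451 and 1359.6 CPM in activated KO cells and 2402 and 2440.3 CPM in resting KO cells. It was 3512 and 1928 CPM in activated and 2955 and 2943 CPM in resting AGN192403 cells, against 3269 and 2378 CPM in activated and 5314 and 3601 CPM in resting control cells. The part of the marker sums in the results was not tested, and the counts of calls without 3 libraries rich in nuclear long RNAs are given with the results. In bulk libraries, fewer cells of a type and less RNA per cell cannot be told apart.

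Many of the vesicle tethering and fusion genes were called higher after each perturbation, and more of them with AGN192403 than with Tmed10 KO. None of the TRAPP and NRZ subunits was called with the KO, beside 19.6% of all genes tested in activated and 7.44% in resting cells. Among so few subunits, 0 calls is near that share in resting cells. Nsf was called lower after both perturbations of activated cells. A gene was called at an adjusted p below 0.05 in edgeR's quasi-likelihood test, with Benjamini-Hochberg adjustment over all 13167 genes. In activated KO cells 28 of the 56 genes were called higher and 1 lower than in activated control cells, where 10.8% of all genes tested were called higher and 8.78% lower. In activated AGN192403 cells 40 were called higher and 1 lower, against 16.4% and 18.3% of all genes. In resting cells the KO called 13 higher and 0 lower, against 2.81% and 4.63% of all genes. Resting AGN192403 cells had 38 called higher and 2 lower, against 11.6% and 13.7% of all genes. For the 0 falls in resting KO cells, edgeR gave 0 at an unadjusted p below 0.05 and DESeq2 also called 0.

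The median log2 fold change of the 56 genes was 0.19 in activated KO cells, 0.31 in activated AGN192403 cells, 0.10 in resting KO cells and 0.29 in resting AGN192403 cells, beside medians over all genes tested of 0.02, -0.01, 0.00 and -0.01. Summed over the 56 genes, activated KO cells had 5533 and 5635 CPM and activated AGN192403 cells 6187 and 6304 CPM, against 4878 and 4901 CPM in activated control cells. Resting KO cells had 4422 and 4388 CPM and resting AGN192403 cells 5546 and 5572 CPM, against 4083 and 4095 CPM in resting control cells. In each state the AGN192403 libraries were highest, the KO libraries lay between, and no group overlapped another. The sum of nuclear long RNAs differed most between replicates in 3 groups, activated AGN192403 cells and both kinds of control cell. Without the richer library of each of these 3 groups (replicate 1 in each), an alternative chosen after seeing the data, the calls were 28 higher and 1 lower in activated KO, 37 and 1 in activated AGN192403, 11 and 0 in resting KO, and 35 and 1 in resting AGN192403 cells. The count in resting KO cells was the least stable, at 7 without resting KO replicate 1, 19 without activated AGN192403 replicate 1 and 8 with DESeq2. DESeq2 made 22 calls higher and 1 lower in activated KO, 35 and 1 in activated AGN192403, 8 and 0 in resting KO, and 31 and 0 in resting AGN192403 cells. Its share over all genes was lower too, at 12.1%, 23.9%, 3.15% and 17% in that order. With edgeR these shares were 19.6%, 34.7%, 7.44% and 25.4%. The calls DESeq2 did not make were Stx18, Napa, Cog6, Rab1b, Rab2a and Creb3l2 in activated KO cells, and Gorasp1, Trappc1, Trappc4, Rint1 and Cog3 in activated AGN192403 cells. In resting cells they were Bet1, Bet1l, Use1, Cog6 and Creb3 with the KO, and Tfg, Trappc1, Trappc5, Gosr1, Use1, Cog3, Cog7, Rab1b and Arfgap2 with AGN192403.

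**Figure D1:**
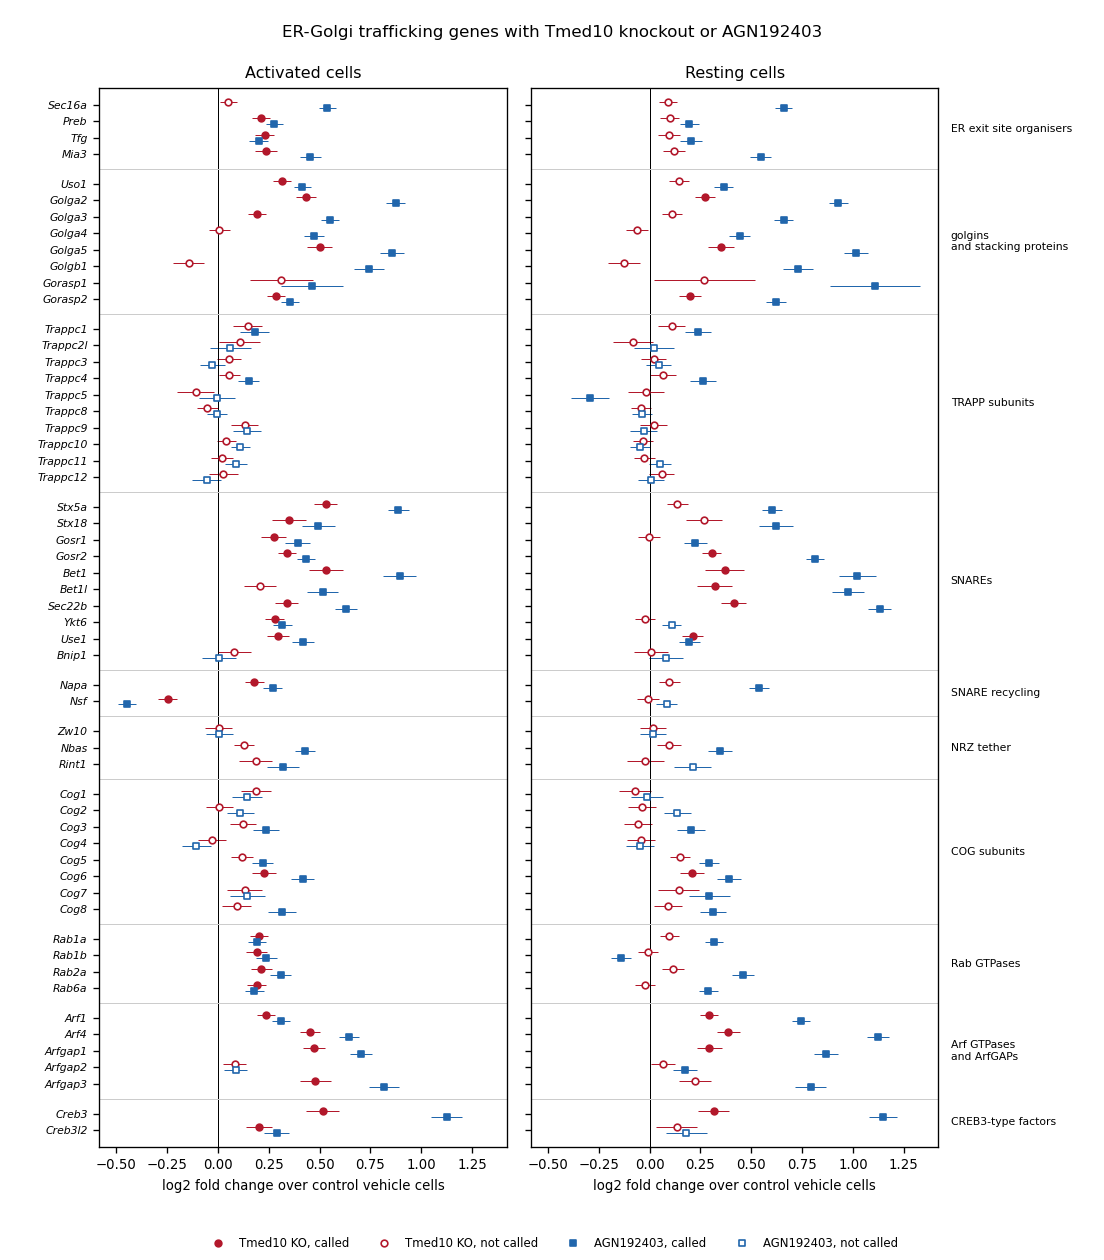
Log2 fold change over control cells (x axis, error bars are SE) of the 56 genes in activated cells (left) and resting cells (right), grouped by role, for Tmed10 KO (red circles) and AGN192403 (blue squares), n = 2 libraries per group. Filled symbols passed an adjusted p of 0.05, as 28 genes did upward for the KO and 40 for AGN192403 in activated cells, while the TRAPP subunits have open symbols for the KO in both states.

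Promoters are shown for 4 of the 9 genes that hold the motif ACGTGGC, because several transcription factors of ER and Golgi stress have published binding motifs. RefSeq promoters on GRCm38.p6, from 250 bases before to 50 after the start, were found for 49 of the 56 genes, as 56 promoters. The motif ACGTGGC, known as the Golgi apparatus stress response element, was sought on both strands and lay in 10 of the 56 promoters (17.86%), against 2.58% of 32851 promoters of the same length. The 32851 were not limited to genes tested here, whereas all 56 genes passed the filter on low counts. For each motif below the 2 sets are therefore unlike, and the difference in share was not tested. Those 10 promoters belong to 9 genes, which are Arf1, Bnip1, Cog3, Creb3, Golga3, Napa, Nsf, Stx5a and Uso1. The overlapping promoters of Arf1 share the same match, which is counted in each of them, here and for the next motif. The unfolded protein response element TGACGTGG, which shares 6 letters with the first motif when they overlap, lay in 3 promoters (5.36%) of Arf1 and Stx5a, against 0.68% of all. The cAMP response element TGACGTCA lay in promoters of Gosr2 and Napa (3.57%), against 1.79% of all. The ER stress response element, a longer gapped motif (0.12% of all promoters), and TGATGNAA, a motif of amino acid starvation factors (3.97% of all), had no match in the windows of the 49 genes. Of the 9 genes with ACGTGGC, 7 were called higher and Nsf lower in activated AGN192403 cells, with a median log2 fold change of 0.31, and 28 of the 40 genes without it were called higher, with a median of 0.32. In activated KO cells 6 of the 9 were called higher and Nsf lower, with a median of 0.19, beside 21 of the 40 with a median of 0.20. In resting AGN192403 cells 7 of the 9 were called higher (median 0.54), beside 26 of the 40 higher and 2 lower (median 0.29). In resting KO cells 2 of the 9 and 11 of the 40 were called higher, with medians of 0.11 and 0.10. On activation of control cells the medians were 0.49 with the motif and 0.13 without it. These differences were not tested. A match describes letters only, and it says nothing about binding.
The 4 sequences read 5′ to 3′ along the gene, with capitals for a match to ACGTGGC or TGACGTGG on either strand. They lie at chr4:43562408-43562707 on the plus strand (Creb3), chr19:8741174-8741473 on the plus strand (Stx5a, the first of 2 promoters), chr5:92137688-92137987 on the plus strand (Uso1) and chr11:103954007-103954306 on the minus strand (Nsf).
Creb3: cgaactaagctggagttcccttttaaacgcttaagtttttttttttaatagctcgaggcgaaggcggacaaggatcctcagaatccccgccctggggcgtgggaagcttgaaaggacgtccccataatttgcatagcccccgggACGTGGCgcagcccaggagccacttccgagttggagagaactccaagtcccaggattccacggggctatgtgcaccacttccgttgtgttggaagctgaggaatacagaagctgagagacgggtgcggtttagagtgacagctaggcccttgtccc
Stx5a: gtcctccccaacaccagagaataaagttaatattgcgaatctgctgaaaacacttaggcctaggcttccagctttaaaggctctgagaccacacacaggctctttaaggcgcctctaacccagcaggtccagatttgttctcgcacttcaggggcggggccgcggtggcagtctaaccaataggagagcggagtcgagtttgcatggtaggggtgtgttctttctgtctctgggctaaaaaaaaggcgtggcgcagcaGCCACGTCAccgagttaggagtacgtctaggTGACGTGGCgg
Uso1: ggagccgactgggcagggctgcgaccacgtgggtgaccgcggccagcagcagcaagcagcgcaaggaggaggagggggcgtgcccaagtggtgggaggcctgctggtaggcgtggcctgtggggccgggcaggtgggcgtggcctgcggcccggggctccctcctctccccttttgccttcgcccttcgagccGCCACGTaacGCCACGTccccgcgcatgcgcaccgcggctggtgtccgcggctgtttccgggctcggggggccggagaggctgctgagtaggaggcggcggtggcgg
Nsf: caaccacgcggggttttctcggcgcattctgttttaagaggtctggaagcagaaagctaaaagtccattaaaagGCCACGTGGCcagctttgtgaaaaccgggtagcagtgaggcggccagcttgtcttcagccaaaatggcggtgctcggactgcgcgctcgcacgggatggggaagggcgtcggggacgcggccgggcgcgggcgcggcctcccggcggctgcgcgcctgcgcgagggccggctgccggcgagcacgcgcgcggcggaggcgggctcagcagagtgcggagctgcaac
The first 3 belong to genes called higher after both perturbations of activated cells, and the last to the gene that was called lower after both.

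The organisers of ER exit sites shape the domains where COPII vesicles bud. Of the 4, 3 were called higher in activated KO cells and 4 in activated AGN192403 cells. In resting cells 0 passed for the KO (edgeR unadjusted p below 0.05 for 2, DESeq2 0) and 4 for AGN192403. The shares of all genes tested called higher were 10.8% and 16.4% in activated KO and AGN192403 cells. At rest they were 2.81% and 11.6%, so 0 of 4 with the KO is near the background. Mia3 (ENSMUSG00000056050, chr1:183326725-183369553, minus strand; TANGO1, which links bulky cargo to the coat) had 111 and 109 CPM in activated KO cells and 127 and 129 CPM in activated AGN192403 cells, against 96 and 91.4 CPM in activated control cells. The 3 groups did not overlap, and AGN192403 libraries were highest. Its log2 fold change was 0.24 ± 0.05 for the KO (edgeR adjusted p = 0.00153) and 0.45 ± 0.05 for AGN192403 (edgeR adjusted p = 9.46e-08). In resting cells Mia3 had 94.7 and 89.2 CPM with the KO and 124 and 124 CPM with AGN192403, against 89.5 and 80.9 CPM in controls. There the KO libraries overlapped the controls and the AGN192403 libraries did not (log2 fold change 0.55 ± 0.05, edgeR adjusted p = 1.55e-08).

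Sec16a, the scaffold of ER exit sites, was singled out after its values were seen. It had 202 and 211 CPM in activated KO cells and 297 and 282 CPM in activated AGN192403 cells, against 203 and 195 CPM in activated control cells. KO and control libraries overlapped, and AGN192403 libraries stood well above both. The log2 fold change was 0.54 ± 0.04 for AGN192403 (edgeR adjusted p = 2.49e-10) and 0.05 ± 0.04 for the KO (edgeR adjusted p = 0.461). Preb, the exchange factor that loads Sar1 for coat assembly, and Tfg, which organises the exit site interface, changed by similar amounts under both perturbations of activated cells. Their log2 fold changes were 0.21 ± 0.04 and 0.23 ± 0.05 for the KO, and 0.28 ± 0.04 and 0.20 ± 0.05 for AGN192403. In resting AGN192403 cells the call for Tfg was lost without resting control replicate 1 (edgeR adjusted p = 0.0822).

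Golgins are coiled-coil tethers that project from Golgi membranes, and the GRASP proteins Gorasp1 and Gorasp2 hold the stacks together. All 8 were called higher with AGN192403 in both states, against 5 in activated KO cells and 3 in resting KO cells. Over all genes tested, 16.4% and 11.6% were called higher in activated and resting AGN192403 cells, and 10.8% and 2.81% with the KO. The median log2 fold change of the 8 was 0.30 in activated KO, 0.51 in activated AGN192403, 0.17 in resting KO and 0.70 in resting AGN192403 cells. Golga5 (ENSMUSG00000021192, chr12:102469135-102497907, plus strand) encodes golgin-84, a membrane-anchored tether of the Golgi rims. It had 67.8 and 64.2 CPM in activated KO cells and 82.8 and 86.6 CPM in activated AGN192403 cells, against 45.6 and 48.2 CPM in activated control cells. In resting cells it had 61.5 and 57.1 CPM with the KO and 91.2 and 97.5 CPM with AGN192403, against 47.2 and 46.6 CPM in controls. The order was AGN192403 above KO above control in both states, with no overlap. Log2 fold changes were 0.50 ± 0.06 in activated KO (edgeR adjusted p = 1.5e-06), 0.86 ± 0.06 in activated AGN192403 (1.94e-11), 0.35 ± 0.06 in resting KO (0.000724) and 1.01 ± 0.06 in resting AGN192403 cells (1.8e-12).

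Golga2 (ENSMUSG00000002546, chr2:32287384-32307921, plus strand) encodes GM130, the cis-Golgi golgin that docks vesicles carrying the tether p115. It had 140.0 and 151 CPM in activated KO cells and 196 and 197 CPM in activated AGN192403 cells, against 110.1 and 104 CPM in activated control cells. At rest it had 125 and 128 CPM with the KO and 203 and 195 CPM with AGN192403, against 103 and 106 CPM in controls. Again the 3 kinds of cell did not overlap in either state. The log2 fold changes were 0.87 ± 0.05 in activated and 0.93 ± 0.05 in resting AGN192403 cells (edgeR adjusted p = 1.75e-13 and 1.64e-13), and 0.43 ± 0.05 and 0.27 ± 0.05 in activated and resting KO cells (edgeR adjusted p = 3.9e-07 and 0.000813). Uso1, the gene of p115 itself, had a log2 fold change of 0.32 ± 0.04 in activated KO and 0.42 ± 0.04 in activated AGN192403 cells, both called.

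Golgb1 encodes giantin, a very long golgin of the cisternal rims, and was singled out after its values were seen. It had 124 and 136 CPM in activated KO cells and 266 and 213 CPM in activated AGN192403 cells, against 148 and 137 CPM in activated control cells. Resting libraries held 122 and 123 CPM with the KO and 214 and 229 CPM with AGN192403, against 142 and 126 CPM in controls. AGN192403 libraries were the highest in both states, although the 2 activated ones lay far apart, and KO libraries lay just below the controls. In activated AGN192403 cells and both kinds of control cell, replicate 1 was richer in nuclear long RNAs and also had the higher Golgb1 value. A link between the 2 was not tested. The log2 fold change was 0.74 ± 0.07 in activated and 0.73 ± 0.07 in resting AGN192403 cells (edgeR adjusted p = 8.56e-09 and 3.55e-08), and -0.14 ± 0.08 and -0.12 ± 0.08 in activated and resting KO cells (edgeR adjusted p = 0.213 and 0.398). The value in activated KO cells passed as lower in 2 alternatives, without activated AGN192403 replicate 1 and with only the compared libraries fitted, and its log2 fold change ran from -0.21 to -0.07 over the 21 alternatives. Golga4, a golgin of the trans-Golgi, had log2 fold changes of 0.01 ± 0.05 in activated KO and 0.47 ± 0.05 in activated AGN192403 cells, of which only the AGN192403 value was called. Golga3 was called in both, at 0.19 ± 0.04 and 0.55 ± 0.04, and its KO call was lost without activated KO replicate 1 (edgeR adjusted p = 0.0561).

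The stacking genes differed in level. Gorasp2 (GRASP55) had 232 and 240.3 CPM in activated KO cells and 236 and 257 CPM in activated AGN192403 cells, against 193 and 194 CPM in activated control cells. Resting cells held 118 and 115 CPM with the KO and 159 and 155 CPM with AGN192403, against 98.1 and 105 CPM in controls. Both perturbations lay above the controls in both states, and KO and AGN192403 libraries overlapped only in activated cells. The log2 fold change was 0.62 ± 0.05 in resting AGN192403 and 0.20 ± 0.05 in resting KO cells, and the resting KO call was lost without resting control replicate 1 and without resting KO replicate 1 (edgeR adjusted p = 0.259 and 0.144). Gorasp1 (GRASP65) was the lowest of the 56 genes, at 2.78 and 2.29 CPM in resting KO cells and 4.76 and 4.58 CPM in resting AGN192403 cells, against 2.20 and 2.12 CPM in resting control cells. AGN192403 libraries stood clear of the others, with a log2 fold change of 1.11 ± 0.22 (edgeR adjusted p = 0.000499), and 32.1% of its exon bases overlap Wdr48 on the other strand. In activated cells Gorasp1 had 7.73 and 7.21 CPM with the KO and 8.49 and 8.23 CPM with AGN192403, against 5.33 and 6.80 CPM in controls. The groups did not overlap, and the AGN192403 call (log2 fold change 0.46 ± 0.15) was lost without activated control replicate 1 or either activated AGN192403 replicate (edgeR adjusted p = 0.261, 0.0599 and 0.0605).

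TRAPP complexes activate Rab1, and few of their subunits were called. None of the 10 subunits was called in activated KO cells (edgeR unadjusted p below 0.05 for 1, DESeq2 0) or in resting KO cells (edgeR unadjusted p below 0.05 for 0, DESeq2 0). Of all genes tested, 19.6% and 7.44% were called there, so 0 of 10 is near the background in resting cells. Log2 fold changes of the 10 ran from -0.11 to 0.15 in activated KO cells. With AGN192403, Trappc1 and Trappc4 were called higher in both states and Trappc5 lower in resting cells. That perturbation called 34.7% of all genes tested in activated and 25.4% in resting cells. Trappc4 had 99.6 and 98.6 CPM in activated KO cells and 105 and 107 CPM in activated AGN192403 cells, against 93.6 and 97 CPM in activated control cells. Without restimulation it had 51.5 and 54.9 CPM with the KO and 56.4 and 63.6 CPM with AGN192403, against 51.1 and 49.9 CPM in controls. AGN192403 libraries were highest and controls lowest in each state, without overlap but over a narrow range, and 18.9% of its exon bases overlap Rps25 on the other strand. The log2 fold changes for AGN192403 were 0.15 ± 0.05 in activated and 0.26 ± 0.06 in resting cells, and these calls were lost without activated control replicate 1 or activated AGN192403 replicate 2 in the first (edgeR adjusted p = 0.169 and 0.0952) and without resting AGN192403 replicate 2 in the second (edgeR adjusted p = 0.17). The calls of Trappc1 and Trappc5 were likewise lost without single libraries or with DESeq2, which called 0 of the 10 in activated and 1 in resting AGN192403 cells. Summed, the 10 subunits had 584 and 587 CPM in activated KO and 587 and 611 CPM in activated AGN192403 cells, against 569 and 574 CPM in activated control cells.

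Among the SNAREs of the ER-Golgi route, 8 of 10 were called higher in activated KO and 9 of 10 in activated AGN192403 cells. In resting cells 5 were called higher with the KO and 8 with AGN192403. Beside these stand 10.8% and 16.4% of all genes tested called higher in activated KO and AGN192403 cells, and 2.81% and 11.6% at rest. DESeq2 called 7 in activated KO, 9 in activated AGN192403, 2 in resting KO and 6 in resting AGN192403 cells. Bnip1, a SNARE of the ER, was called in none of the 4 comparisons. Stx5a (ENSMUSG00000010110, chr19:8741413-8756069, plus strand) encodes syntaxin 5, the Qa-SNARE that pairs with Bet1 and Gosr2 to fuse ER-derived vesicles. It had 75.2 and 75.1 CPM in activated KO cells and 93.1 and 99.1 CPM in activated AGN192403 cells, against 52.2 and 51.9 CPM in activated control cells. In resting cells it had 80.2 and 80.3 CPM with the KO and 112 and 109.7 CPM with AGN192403, against 74.6 and 71.7 CPM in controls. The groups did not overlap in either state, but the distance between KO and control was small in resting cells. Log2 fold changes were 0.53 ± 0.05 in activated KO (edgeR adjusted p = 1.31e-07), 0.89 ± 0.05 in activated AGN192403 (1.11e-12), 0.14 ± 0.05 in resting KO (0.121, not called) and 0.60 ± 0.05 in resting AGN192403 cells (1.17e-09). The first promoter of Stx5a, printed above, held ACGTGGC on both strands.

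Bet1 (ENSMUSG00000032757, chr6:4076899-4086972, minus strand) had 36.4 and 34 CPM in activated KO cells and 42.7 and 47.9 CPM in activated AGN192403 cells, against 23.7 and 25.3 CPM in activated control cells. At rest it had 23.8 and 24.7 CPM with the KO and 35.5 and 39.7 CPM with AGN192403, against 19.7 and 17.9 CPM in controls. AGN192403 exceeded KO and KO exceeded control in every library of both states. With AGN192403 the log2 fold change was 0.89 ± 0.08 in activated and 1.02 ± 0.09 in resting cells (edgeR adjusted p = 2.32e-09 and 3.24e-09). With the KO it was 0.53 ± 0.08 in activated and 0.37 ± 0.10 in resting cells (edgeR adjusted p = 4.25e-05 and 0.0182). The resting KO call of Bet1 was lost without resting control replicate 2 or either resting KO replicate (edgeR adjusted p = 0.19, 0.0803 and 0.0562). Its relative Bet1l (GS15), which works within the Golgi, had 33.7 and 32.3 CPM in activated KO cells and 38.5 and 43.2 CPM in activated AGN192403 cells, against 28.3 and 29.1 CPM in activated control cells. In resting cells Bet1l had 27.8 and 27.4 CPM with the KO and 43.5 and 43.5 CPM with AGN192403, against 23.9 and 20.7 CPM in controls. The groups did not overlap, and resting AGN192403 libraries stood farthest from their controls (log2 fold change 0.98 ± 0.08, edgeR adjusted p = 1.09e-09). The resting KO value of 0.32 ± 0.09 was called and lost its call without resting control replicate 2 or resting KO replicate 1 (edgeR adjusted p = 0.294 and 0.142), and the activated KO value of 0.21 ± 0.08 was not called (edgeR adjusted p = 0.0674).

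Sec22b (ENSMUSG00000027879, chr3:97901190-97923276, plus strand) is the R-SNARE that serves both forward and return traffic at the ER. It had 98.5 and 92.6 CPM in activated KO cells and 117 and 118 CPM in activated AGN192403 cells, against 72.9 and 78.9 CPM in activated control cells. Resting libraries held 76.2 and 76.3 CPM with the KO and 123 and 127 CPM with AGN192403, against 53.7 and 60.2 CPM in controls. No group overlapped another within a state, and resting AGN192403 cells held the highest values of all. The log2 fold change in resting cells was 0.41 ± 0.06 for the KO and 1.13 ± 0.06 for AGN192403 (edgeR adjusted p = 6.15e-05 and 1.08e-13), and in activated cells 0.34 ± 0.06 and 0.63 ± 0.05 (edgeR adjusted p = 7.12e-05 and 1.07e-09). Among the other SNAREs, Gosr2 was called in all 4 comparisons, at 0.34 ± 0.04 in activated KO, 0.43 ± 0.04 in activated AGN192403, 0.31 ± 0.05 in resting KO and 0.81 ± 0.04 in resting AGN192403 cells. Use1, a SNARE of the ER that receives returning vesicles, was also called in all 4, at 0.30 ± 0.06, 0.42 ± 0.06, 0.21 ± 0.05 and 0.20 ± 0.05 in the same order. Its resting KO call was lost without resting control replicate 1 or with DESeq2, and its resting AGN192403 call without resting AGN192403 replicate 2 or with DESeq2 (adjusted p of at most 0.125 and 0.124 over the alternatives). Ykt6, an R-SNARE anchored by lipid, was called higher in activated cells, at 0.28 ± 0.05 for the KO and 0.32 ± 0.05 for AGN192403, and had -0.02 ± 0.05 and 0.11 ± 0.05 in resting cells, neither called.

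Napa and Nsf, whose products work as a pair, were called in opposite directions in activated cells. Nsf (ENSMUSG00000034187, chr11:103821782-103954056, minus strand) had 145 and 148 CPM in activated KO cells and 124 and 130.0 CPM in activated AGN192403 cells, against 175 and 172 CPM in activated control cells. Every control library was above every KO library, and every KO library above every AGN192403 library. The log2 fold change was -0.25 ± 0.04 for the KO (edgeR adjusted p = 0.000208) and -0.45 ± 0.05 for AGN192403 (edgeR adjusted p = 1.88e-08), and Nsf was the only one of the 56 called lower in either comparison. In resting cells Nsf had 82 and 76.5 CPM with the KO and 86.4 and 83.8 CPM with AGN192403, against 78.1 and 81.9 CPM in controls. There the KO and control libraries overlapped, the AGN192403 libraries lay just above, and neither comparison was called (log2 fold change -0.01 ± 0.05 and 0.08 ± 0.05). Napa was called higher in activated cells at 0.18 ± 0.05 for the KO and 0.27 ± 0.05 for AGN192403, and its KO call was lost without activated control replicate 2 or activated KO replicate 1, and with DESeq2 (adjusted p of at most 0.15). The printed Nsf promoter holds ACGTGGC on both strands in a single palindrome, although the gene was called lower.

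**Figure D2:**
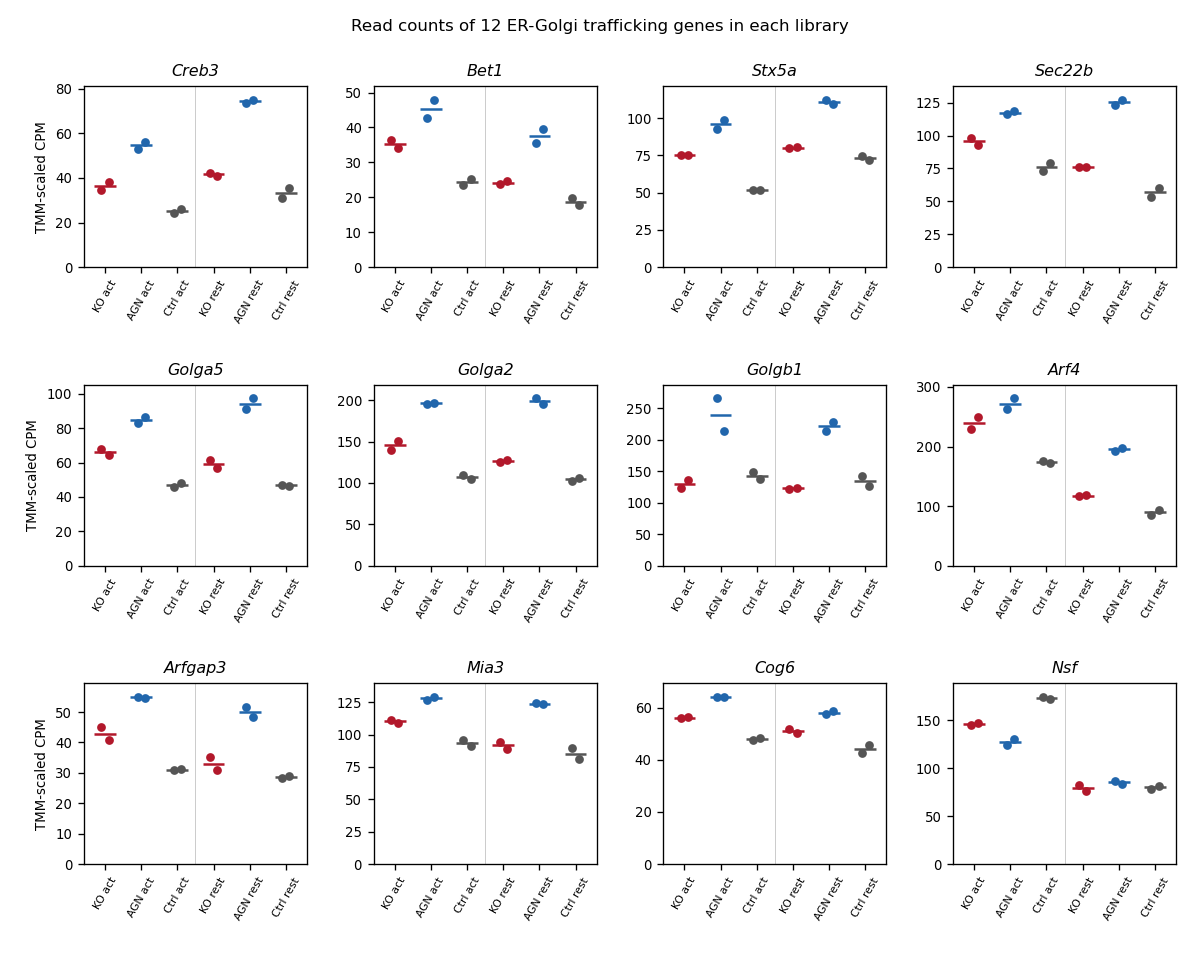
TMM-scaled CPM (y axis, from 0) of 12 genes in each library, by group along the x axis (KO in red, AGN192403 in blue, control in grey, activated cells left of resting cells), with a line at the mean of 2 libraries. In activated cells the KO libraries of Golgb1 lie below its controls, and those of Nsf lie between its controls and the lower AGN192403 libraries. The other genes shown run AGN192403, KO and control from high to low. Apart from Golgb1 the 12 genes were picked by their called changes, so this order describes them only.

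The NRZ complex tethers COPI vesicles arriving at the ER, and its 3 subunits did not move as a group. Zw10 passed the test under neither perturbation, with log2 fold changes of 0.01 ± 0.07 in activated KO, 0.01 ± 0.07 in activated AGN192403, 0.02 ± 0.06 in resting KO and 0.02 ± 0.06 in resting AGN192403 cells. Nbas was called higher with AGN192403, at 0.43 ± 0.05 in activated and 0.35 ± 0.06 in resting cells, and had 0.13 ± 0.05 and 0.09 ± 0.06 with the KO, neither called. Rint1 was called at 0.32 ± 0.08 in activated AGN192403 cells only, and that call was lost with DESeq2 (adjusted p = 0.051). For the 0 calls in KO cells, edgeR gave an unadjusted p below 0.05 for 2 of 3 in activated and 0 of 3 in resting cells, and DESeq2 called 0 in both. Of all genes tested, 19.6% and 7.44% were called with the KO in activated and resting cells, so 0 of 3 is near the background.

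COG tethers vesicles that recycle enzymes within the Golgi. Of its 8 subunits, 1 was called higher in activated KO, 4 in activated AGN192403, 1 in resting KO and 5 in resting AGN192403 cells, beside 10.8%, 16.4%, 2.81% and 11.6% of all genes. DESeq2 called 0, 3, 0 and 3 of the 8 in the same order. Cog6 (ENSMUSG00000027742, chr3:52981875-53017237, minus strand) was the KO call in both states, with 56 and 56.3 CPM in activated KO cells and 63.9 and 64.2 CPM in activated AGN192403 cells, against 47.4 and 48.5 CPM in activated control cells. Without restimulation it had 51.9 and 50.3 CPM with the KO and 57.4 and 58.6 CPM with AGN192403, against 42.7 and 45.7 CPM in controls. The 3 kinds of cell were ordered AGN192403, KO and control with no overlap in both states. The log2 fold changes were 0.42 ± 0.06 in activated and 0.39 ± 0.06 in resting AGN192403 cells (edgeR adjusted p = 1.96e-06 and 1.96e-05), and 0.23 ± 0.06 and 0.21 ± 0.06 in activated and resting KO cells (edgeR adjusted p = 0.00602 and 0.0321). The KO calls were lost without activated control replicate 1 or activated KO replicate 1 in activated cells (edgeR adjusted p = 0.0634 and 0.0595) and without resting control replicate 1 or resting KO replicate 1 in resting cells (edgeR adjusted p = 0.295 and 0.212), and DESeq2 made neither. Cog5 and Cog8 were called with AGN192403 in both states, at 0.22 ± 0.05 and 0.32 ± 0.07 in activated cells and 0.29 ± 0.05 and 0.31 ± 0.07 in resting cells, and the activated call of Cog5 was lost without the 3 libraries rich in nuclear long RNAs (edgeR adjusted p = 0.125). Cog1, Cog2 and Cog4 were called in none of the 4 comparisons. Cog8 shares 28.2% of its exon bases with Pdf on the same strand and Cog5 24.0% with Hbp1 on the other, so the assignment of those reads is uncertain.

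Rab GTPases recruit tethers to their membranes, with Rab1a and Rab1b on the ER-to-Golgi route, Rab2a at the intermediate compartment and Rab6a on the Golgi. All 4 were called higher in activated KO and activated AGN192403 cells, while DESeq2 called 2 in activated KO and 4 in activated AGN192403 cells. In resting cells 0 were called with the KO (edgeR unadjusted p below 0.05 for 2, DESeq2 0), and with AGN192403 3 were called higher and Rab1b lower. The shares of all genes tested called higher were 10.8% and 16.4% in activated KO and AGN192403 cells. At rest they were 2.81% and 11.6%, so 0 of 4 with the KO is near the background. Rab2a had 98.3 and 102 CPM in activated KO cells and 105 and 108 CPM in activated AGN192403 cells, against 81.6 and 90.7 CPM in activated control cells. In resting cells it had 80.9 and 79.4 CPM with the KO and 102 and 102 CPM with AGN192403, against 75.2 and 73.2 CPM in controls. The KO libraries lay above the controls and below the AGN192403 libraries in both states. Its log2 fold change was 0.21 ± 0.05 in activated KO, 0.31 ± 0.05 in activated AGN192403 and 0.46 ± 0.05 in resting AGN192403 cells, and the KO call was lost without activated control replicate 1 (edgeR adjusted p = 0.144) and with DESeq2 (adjusted p = 0.0537). Rab1a was at 0.20 ± 0.04 in activated KO, 0.19 ± 0.04 in activated AGN192403 and 0.32 ± 0.04 in resting AGN192403 cells. Its paralogue Rab1b was at 0.19 ± 0.05, 0.24 ± 0.05 and -0.14 ± 0.05, so the pair had opposite signs in resting AGN192403 cells. The fall of Rab1b was lost in 12 of the 21 alternatives, among them without resting AGN192403 replicate 2. Whether any reads were split between the pair was not tested. The activated KO calls of Rab1b and Rab6a were lost without activated control replicate 1 or activated KO replicate 2 (edgeR adjusted p of at most 0.106 and 0.0702 over the alternatives).

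Arf GTPases bring COPI coats to Golgi membranes, and ArfGAPs switch them off. Arf4 (ENSMUSG00000021877, chr14:26638074-26665084, plus strand), an Arf of the intermediate compartment whose transcription CREB3 is known to raise under Golgi stress in human cells, had 229 and 249 CPM in activated KO cells and 263 and 281 CPM in activated AGN192403 cells, against 175 and 173 CPM in activated control cells. At rest it had 117 and 119 CPM with the KO and 193 and 198 CPM with AGN192403, against 85.4 and 93.9 CPM in controls. The 3 kinds of cell did not overlap in either state, and 17.7% of its exon bases overlap Arf4os and Pde12 on the other strand. Log2 fold changes were 0.45 ± 0.05 in activated KO (edgeR adjusted p = 2.32e-07), 0.64 ± 0.05 in activated AGN192403 (9.05e-11), 0.39 ± 0.06 in resting KO (6.05e-05) and 1.12 ± 0.05 in resting AGN192403 cells (4.59e-14). Arf1, the general Arf of the Golgi, was called higher in all 4, at 0.24 ± 0.04, 0.31 ± 0.04, 0.29 ± 0.04 and 0.75 ± 0.04 in the same order.

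Arfgap3 (ENSMUSG00000054277, chr15:83299739-83350247, minus strand) had 45.2 and 40.7 CPM in activated KO cells and 55.1 and 54.5 CPM in activated AGN192403 cells, against 30.9 and 31.3 CPM in activated control cells. Resting libraries held 35.2 and 30.9 CPM with the KO and 51.7 and 48.3 CPM with AGN192403, against 28.5 and 28.9 CPM in controls. The groups kept the order AGN192403, KO and control without overlap. Log2 fold changes were 0.48 ± 0.07 and 0.82 ± 0.07 in activated KO and AGN192403 cells (edgeR adjusted p = 3.33e-05 and 1.44e-09), 0.79 ± 0.08 in resting AGN192403 cells (edgeR adjusted p = 1.31e-08) and 0.22 ± 0.08 in resting KO cells, which was not called (edgeR adjusted p = 0.0918). Arfgap1 (ENSMUSG00000027575, chr2:180967225-180982526, plus strand) had 90.0 and 88.7 CPM in activated KO cells and 99.9 and 109.5 CPM in activated AGN192403 cells, against 64.1 and 64.9 CPM in activated control cells, and 58.6 and 57.3 CPM in resting KO and 88.8 and 84.9 CPM in resting AGN192403 cells, against 46.8 and 48 CPM in resting control cells. It followed the same order and was called in all 4 comparisons, at 0.47 ± 0.05, 0.70 ± 0.05, 0.29 ± 0.06 and 0.87 ± 0.06 for activated KO, activated AGN192403, resting KO and resting AGN192403 cells. Only its resting KO call was lost, without resting KO replicate 1 (edgeR adjusted p = 0.054). Arfgap2 was the exception in activated cells, at 0.08 ± 0.06 with the KO and 0.09 ± 0.06 with AGN192403, neither called. In resting AGN192403 cells it was called higher, with 92 and 88.8 CPM against 77.1 and 82.3 CPM in controls, a call that DESeq2 did not make. On the other strand 33.4% of its exon bases overlap 1110051M20Rik.

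Creb3 and Creb3l2 encode transcription factors that are made as ER membrane proteins and released by cleavage in the Golgi. Creb3 (ENSMUSG00000028466, chr4:43562332-43567060, plus strand) had the largest log2 fold change of the 56 genes for AGN192403 in both states. It had 34.4 and 38.2 CPM in activated KO cells and 53 and 56.2 CPM in activated AGN192403 cells, against 24.3 and 25.8 CPM in activated control cells. Without restimulation it had 42.2 and 41 CPM with the KO and 73.4 and 74.9 CPM with AGN192403, against 31 and 35.6 CPM in controls. AGN192403 libraries were more than double the controls in both states, and KO libraries lay between without overlap. The log2 fold changes were 1.13 ± 0.08 in activated and 1.15 ± 0.07 in resting AGN192403 cells (edgeR adjusted p = 9.91e-12 and 3.02e-12), and 0.52 ± 0.08 and 0.32 ± 0.07 in activated and resting KO cells (edgeR adjusted p = 3.93e-05 and 0.00911). The resting KO call was lost without resting control replicate 1 or resting KO replicate 1 (edgeR adjusted p = 0.191 and 0.117) and with DESeq2 (adjusted p = 0.0801), and 20.8% of the Creb3 exon bases overlap Gba2 and Tln1 on the other strand. Creb3l2 had 51.1 and 53.3 CPM in activated KO cells and 55 and 55.3 CPM in activated AGN192403 cells, against 46.5 and 43.8 CPM in activated control cells. In resting cells it had 15.2 and 16.5 CPM with the KO and 15.9 and 16.4 CPM with AGN192403, against 13.5 and 14.9 CPM in controls. Perturbed libraries lay above the controls in each state by small distances. The log2 fold change was 0.29 ± 0.06 in activated AGN192403 cells (edgeR adjusted p = 0.000635) and 0.20 ± 0.06 in activated KO cells (edgeR adjusted p = 0.0228), and the KO call was lost without activated control replicate 2 or either activated KO replicate (edgeR adjusted p = 0.209, 0.0659 and 0.131) and with DESeq2 (adjusted p = 0.306). In resting cells neither value was called, at 0.13 ± 0.10 for the KO and 0.18 ± 0.10 for AGN192403.

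Testing KO against AGN192403 directly needs no control library. In activated cells 18 of the 56 genes were called lower in KO than in AGN192403 cells and 1 higher, against 7.34% of all genes tested called lower and 13% higher. In resting cells 32 were called lower and 1 higher, against 7.78% and 8.83% of all genes. The gap was widest for Golgb1, at -0.89 ± 0.07 in activated and -0.86 ± 0.07 in resting cells on the log2 scale (edgeR adjusted p = 2.53e-09 and 5.84e-09). Creb3 had the next largest in activated cells, at -0.61 ± 0.07, and a gap of -0.83 ± 0.07 in resting cells (edgeR adjusted p = 5.88e-07 and 1.19e-09), where Gorasp1 was at -0.84 ± 0.21, a call lost without resting AGN192403 replicate 2 or resting KO replicate 2 (edgeR adjusted p of at most 0.0552). Sec16a (-0.49 ± 0.04 and -0.57 ± 0.04), Golga4 (-0.46 ± 0.05 and -0.51 ± 0.05), Golga2 (-0.44 ± 0.05 and -0.65 ± 0.05) and Golga3 (-0.36 ± 0.04 and -0.55 ± 0.05) were also called lower in KO cells in both states.

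Other genes were not called between the perturbations of activated cells, which does not show that they responded alike. Uso1, Gorasp2, Gosr2, Ykt6, Use1, Napa, Arf1 and all 4 Rab GTPases had none, with differences between -0.12 and 0.01 on the log2 scale. In resting cells Gorasp2 (-0.42 ± 0.05), Gosr2 (-0.51 ± 0.04), Napa (-0.44 ± 0.05), Arf1 (-0.45 ± 0.04), Rab1a (-0.22 ± 0.04), Rab2a (-0.35 ± 0.05) and Rab6a (-0.31 ± 0.05) were called lower in KO cells, the call of Rab1a being lost without resting AGN192403 replicate 2 (edgeR adjusted p = 0.0718). Nsf was the gene called higher in activated KO than in activated AGN192403 cells, at 0.20 ± 0.05 (edgeR adjusted p = 0.00269), and the call was lost without activated AGN192403 replicate 1 or activated KO replicate 2 (edgeR adjusted p of at most 0.0647). Trappc5 was the gene called higher in resting KO than in resting AGN192403 cells, at 0.27 ± 0.09 (edgeR adjusted p = 0.0425), and 7 of 21 alternatives lost it, among them each omission of a resting KO or resting AGN192403 library and DESeq2 (adjusted p up to 0.17).

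**Figure D3:**
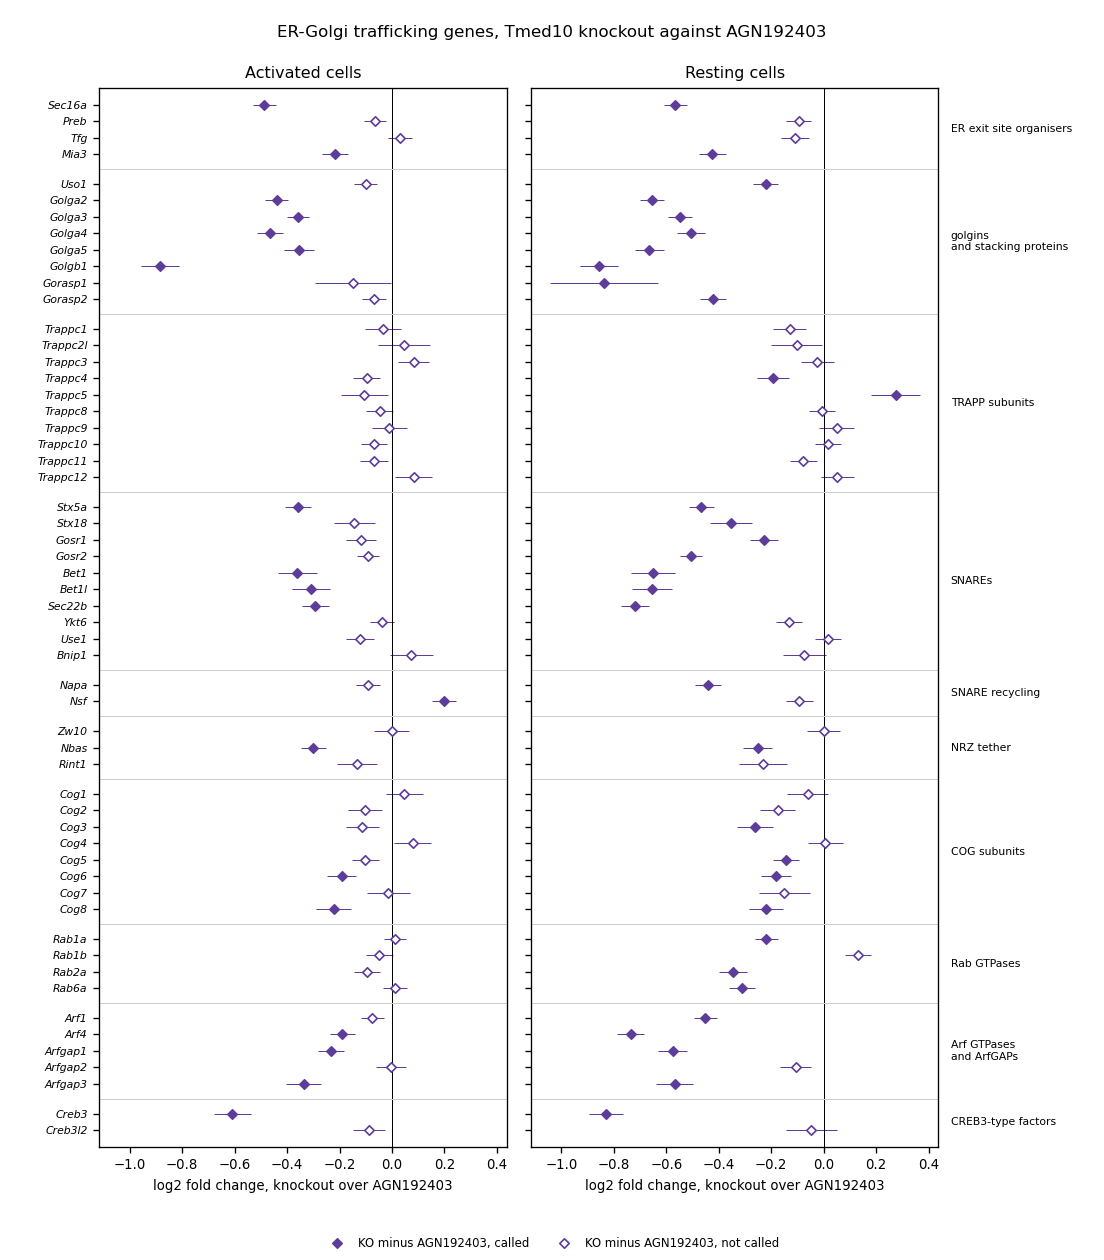
Log2 fold change of Tmed10 KO over AGN192403 cells (x axis, error bars are SE) for the 56 genes in activated cells (left) and resting cells (right), n = 2 libraries per group, with filled symbols for calls at an adjusted p of 0.05. Most called genes lie left of 0, 18 in activated and 32 in resting cells, and Golgb1 lies farthest left in both.

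Activation by antibody to CD3 changed most of the 56 genes in both directions. In control cells 27 were called higher after activation and 14 lower, against 36.4% and 37.4% of all genes tested. In AGN192403 cells the numbers were 25 and 15 (33.9% and 36.1% of all genes), and in KO cells 34 and 12 (37.2% and 36.5%). Creb3l2 rose most in control cells, by 1.66 ± 0.08 on the log2 scale (edgeR adjusted p = 1.6e-15), followed by Gorasp1 (1.49 ± 0.21), Nsf (1.11 ± 0.05), Arf4 (0.95 ± 0.05), Gorasp2 (0.92 ± 0.05) and Trappc4 (0.92 ± 0.06). Every activated control library of these 6 genes exceeded every resting one. That separation follows from picking them by the largest called changes in this comparison and adds no support.

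Uso1 (0.74 ± 0.05), Tfg (0.74 ± 0.05), Nbas (0.64 ± 0.06) and Cog7 (0.63 ± 0.10) also rose on activation of control cells. The genes that fell include Gosr1 (-0.60 ± 0.06), Rab1b (-0.53 ± 0.05), Trappc12 (-0.50 ± 0.07), Stx5a (-0.49 ± 0.06), Use1 (-0.43 ± 0.06) and Creb3 (-0.42 ± 0.08). So within the TRAPP complex Trappc4 rose while Trappc1, Trappc8, Trappc9, Trappc11 and Trappc12 fell, although the fall of Trappc9 was lost in 4 of 21 alternatives, among them DESeq2 and exon length and GC offsets (adjusted p of at most 0.54). The pair of CREB3-type factors also split, with Creb3 called lower and Creb3l2 higher after activation in KO, AGN192403 and control cells. Creb3 changed by -0.22 ± 0.07 in KO cells and -0.44 ± 0.06 in AGN192403 cells, and Creb3l2 by 1.73 ± 0.08 and 1.77 ± 0.08, and the KO call of Creb3 was lost without resting or activated KO replicate 1, with no filter on low counts and with DESeq2 (adjusted p of at most 0.166). A share of calls near 73.8%, that of all genes in control cells, was found among the 56 genes too (41 of 56), so this number is close to the background.

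**Figure D4:**
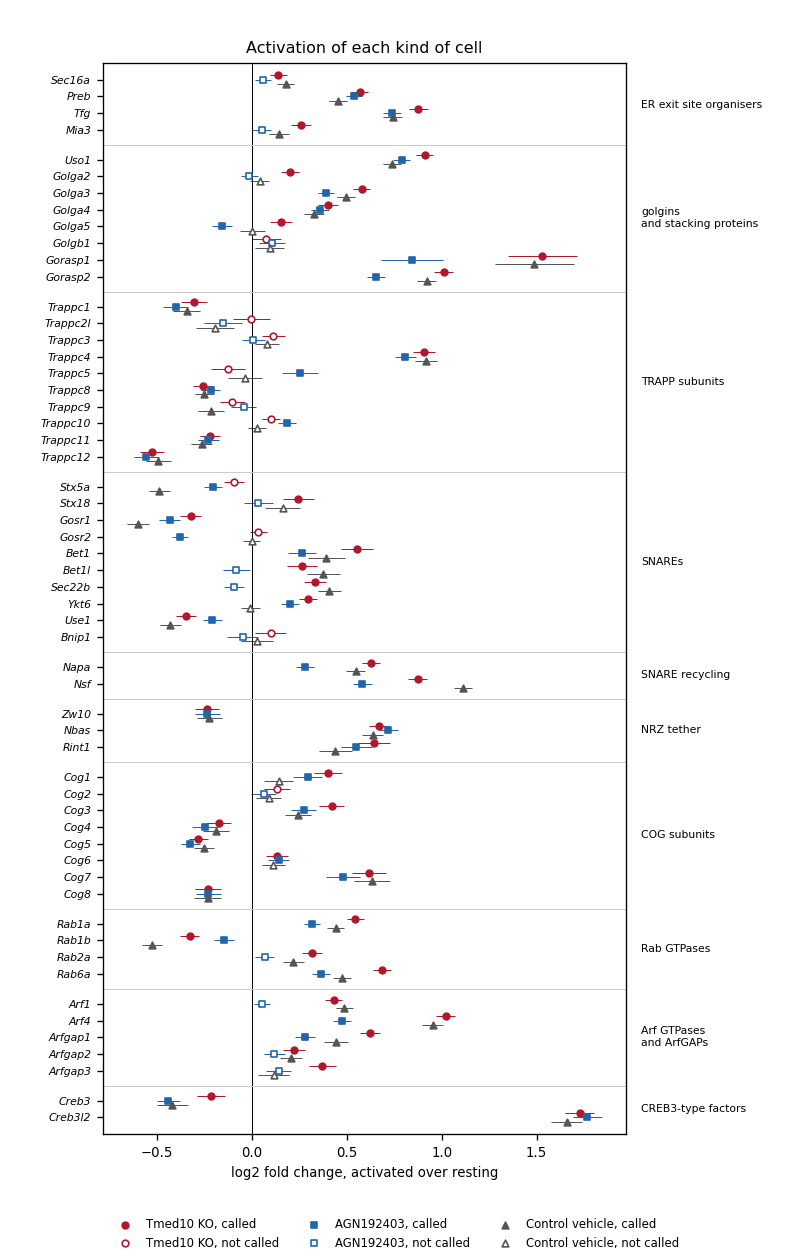
Log2 fold change of activated over resting cells (x axis, error bars are SE) for the 56 genes by role, in Tmed10 KO (circles), AGN192403 (squares) and control cells (triangles), n = 2 libraries per group, filled where called. Creb3l2 and Gorasp1 lie farthest right, Gosr1, Rab1b and Trappc12 are left of 0, and for Nsf, Arf4 and Sec22b the AGN192403 squares lie left of the control triangles.

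The response to activation itself differed with the perturbation for some genes, as tested by the difference of the 2 log2 fold changes. With the KO, 3 of the 56 were called, against 4.96% of all genes, and with AGN192403 12 were called, against 19.7% of all genes. Both shares are close to the background, so the genes below are described singly and not as a trait of the list. Stx5a changed on activation by -0.09 ± 0.05 in KO cells (not called) and -0.20 ± 0.05 in AGN192403 cells, against -0.49 ± 0.06 in control cells. The difference was 0.39 ± 0.08 for the KO and 0.29 ± 0.07 for AGN192403 (edgeR adjusted p = 0.00191 and 0.0066), and DESeq2 did not call the AGN192403 difference. Ykt6 differed by 0.30 ± 0.07 for the KO (edgeR adjusted p = 0.00689), a call lost without activated control replicate 2, resting KO replicate 1 or activated KO replicate 2, and with DESeq2 (adjusted p of at most 0.114). Nsf rose on activation by 0.87 ± 0.05 in KO cells and 0.58 ± 0.05 in AGN192403 cells, against 1.11 ± 0.05 in control cells. The difference was -0.53 ± 0.07 for AGN192403 (edgeR adjusted p = 4.87e-06) and -0.24 ± 0.07 for the KO (edgeR adjusted p = 0.0449). The KO difference for Nsf was lost in 8 of 21 alternatives, among them without resting control replicate 1 and without activated control replicate 1 (edgeR adjusted p = 0.177 and 0.141).

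For Sec22b the difference with AGN192403 was -0.50 ± 0.08 (edgeR adjusted p = 5.94e-05), since Sec22b changed by -0.09 ± 0.05 on activation in AGN192403 cells, against 0.41 ± 0.06 in control cells. Arf4 (-0.48 ± 0.07), Bet1l (-0.46 ± 0.11), Arf1 (-0.43 ± 0.06), Gosr2 (-0.38 ± 0.06), Napa (-0.27 ± 0.07) and Gorasp2 (-0.27 ± 0.07) differed in the same direction. In AGN192403 cells both resting libraries of Sec22b and of Gosr2 lay above both activated ones. The difference of Bet1l was lost without resting control replicate 2 or with DESeq2, that of Napa without resting AGN192403 replicate 1 and that of Gorasp2 without the 3 libraries rich in nuclear long RNAs (adjusted p of at most 0.0628, 0.0826 and 0.132). Rab1b (0.38 ± 0.07), Use1 (0.22 ± 0.08) and Ykt6 (0.21 ± 0.07) differed in the other direction, and the differences of Use1 and Ykt6 were lost in 11 and 8 of the 21 alternatives.

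Related genes outside the list were looked at in lists fixed with it. Of 38 further tethers, SNAREs and Rabs tested, 14 were called higher and 1 lower in activated KO, 21 and 1 in activated AGN192403, 4 and 1 in resting KO, and 14 and 1 in resting AGN192403 cells, with a median log2 fold change of 0.07 and 0.20 in activated KO and AGN192403 cells. The leading ones with AGN192403 in activated cells were Yif1a (0.90 ± 0.07), Yipf5 (0.74 ± 0.06) and Blzf1 (0.63 ± 0.07). COPI coat genes (10 tested) had 9 called higher in activated KO and 9 in activated AGN192403 cells, and COPII coat genes (11 tested) had 5 and 7, led by Sec24d (0.82 ± 0.06 with the KO and 1.24 ± 0.05 with AGN192403). Cargo receptors (18 tested) had 13 higher with the KO and 11 with AGN192403, and ER chaperones (20 tested) 18 and 16. DESeq2 called 1 ER chaperone lower in activated KO, 1 in activated AGN192403 and 1 in resting AGN192403 cells. In resting KO cells the numbers were 8 of 10 for COPI, 5 of 11 for COPII, 6 of 18 for cargo receptors and 3 of 20 for ER chaperones, beside 13 of the 56 genes described here. In resting AGN192403 cells they were 9, 8, 12 and 12, beside 38 of 56. Of all genes tested, 10.8% were called higher in activated KO and 16.4% in activated AGN192403 cells. At rest the shares were 2.81% with the KO and 11.6% with AGN192403.

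Levels between genes were compared per kilobase of merged exons. Arf1 was highest, at 176 CPM per kb in activated and 125 CPM per kb in resting control cells. Rab1a (61.2 and 45 CPM per kb) and Rab1b (46.7 and 67.4 CPM per kb) were among the next. Gorasp1 was lowest in both states (1.46 and 0.521 CPM per kb), with Cog7 and Rint1 also near the bottom in both. Creb3 (10.6 and 14 CPM per kb) stood above Creb3l2 (6.20 and 1.95 CPM per kb) in control cells of both states.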

How the data were processed

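RNA was profiled in 12 libraries of 6 groups of 2, taken from the sample labels. The authors prepared strand-specific poly(A) libraries, aligned reads to GRCm38 with STAR (2.6.0c in the submitters' processing notes) and deposited 1 table of whole-number counts per Ensembl gene, with HTSeq also named in those notes. The strand setting of the counting is not given in the sources used here, so overlapping genes on opposite strands may share reads. Overlaps not given with the results include Stx18 (32.3% of exon bases), Cog1 (22.4%), Preb (21.8%), Rab6a (19.0%) and Gorasp2 (10.0%), all with genes on the other strand. Exon bases of Bet1l overlap Gm45785 on the same strand (9.1%) and Ric8a on the other (9.9%). The study's methods used DESeq2.

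The 56 genes, the related gene lists and the comparisons were chosen with earlier results of these data known. Counts of 13167 genes (99.91% of all counts) that passed filterByExpr were scaled by TMM (factors 0.976 to 1.02) and fitted with edgeR 4.0.16 in R 4.3.3 as a quasi-likelihood model of the 6 groups with 6 residual degrees of freedom (common biological coefficient of variation 0.0306). Each of 11 contrasts was adjusted by the Benjamini-Hochberg method over all genes tested and called at 0.05. The steps were tested on simulated data with 200 changed genes. Values of every library were given for the 6 called genes with the largest absolute log2 fold change in each of the 4 comparisons with control cells and in activation of control cells, for the largest called gene of each role in activated KO cells, and for Creb3, Creb3l2 and Arf4. Values of Sec16a, Golgb1 and the other genes named were chosen after their values were seen. From the related lists at most 3 genes each were named, the largest called.

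The 8 alternatives fixed first were no filter on low counts, at least 5 CPM in 2 libraries, size factors by the median-ratio method, no TMM scaling beyond the totals, the replicate number as a block, each library left out in turn, only the compared libraries, and DESeq2 1.42.0. Exon length and GC offsets and omission of the richer library of the 3 groups whose libraries differed most in nuclear long RNAs were added after seeing the data, which gives 21 alternative fits in all. RefSeq promoters (GRCm38.p6) were searched for motifs on both strands. Of the related genes, 1 symbol had no match. No other column of the table was left out. The spread between the 2 libraries of a group was 1.13 to 3.86 times that of counting alone (chi-square per degree of freedom), and the SE of each fold change holds both, so no separate intervals of counts are given.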

Additional observations from a re-analysis of the deposited data

Results flagged for a closer look

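The change on activation differed between perturbed and control cells, by the test of the difference itself (edgeR, adjusted p below 0.05), for 3 of the 56 genes with the KO and 12 with AGN192403, against 4.96% and 19.7% of all genes tested, so both shares are close to the background. For the KO the differences on the log2 scale were 0.39 for Stx5a, 0.30 for Ykt6 and -0.24 for Nsf. For AGN192403 the differences were above 0 for Stx5a (0.29), Ykt6 (0.21), Use1 (0.22) and Rab1b (0.38). They were below 0 for Gorasp2 (-0.27), Napa (-0.27), Gosr2 (-0.38), Arf1 (-0.43), Bet1l (-0.46), Arf4 (-0.48), Sec22b (-0.50) and Nsf (-0.53). Stx5a and Ykt6 differed upward, and Nsf downward, for both perturbations, which share their control libraries.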

How the results depend on the processing

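Over 21 alternative fits no named value changed its sign while called. Of 2394 named values, 2304 kept their direction and side of the threshold, 80 lost the call and 10 gained one. Genes called under every alternative were 20 of 29 in activated KO, 35 of 41 in activated AGN192403, 6 of 13 in resting KO, 30 of 40 in resting AGN192403 and 34 of 41 on activation of control cells. The number called in resting KO cells, 13, was 8 with DESeq2 and 7 to 19 with 1 library left out (lowest without resting KO replicate 1). The number whose activation response differed with the KO, 3, was 5 with the replicate block, 1 with DESeq2 and 1 to 5 with 1 library left out (lowest without resting KO replicate 1, highest without activated AGN192403 replicate 2). The causes were not tested. Direct calls of KO against AGN192403 ranged from 14 to 28 in activated and 22 to 36 in resting cells.

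Replicate numbers were not taken to pair the libraries, since 12 of 15 correlations of same-numbered deviations between groups lay from -0.00507 to 0.0288. The other 3, among activated AGN192403, activated control and resting control cells, were 0.189 to 0.239, so replicates with the same number deviated together in these groups. With the replicate block the counts were 30 in activated KO, 41 in activated AGN192403, 15 in resting KO and 40 in resting AGN192403 cells. Exon length and GC offsets moved activation of control cells to 34 higher and 11 lower, beside 27 and 14.

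Counts over all genes moved by more than 1.5 times as follows. Activated KO calls, 2583, were 1355 with DESeq2, 1538 without activated control replicate 1 and 1686 without activated KO replicate 1. Activated AGN192403 calls, 4570, were 2884 with DESeq2. Resting KO calls, 979, were 366 with DESeq2 and 317 to 1477 with 1 library left out, lowest without resting KO replicate 1 and highest without activated AGN192403 replicate 1, with 349 without resting control replicate 1 and 471 without resting KO replicate 2. Resting AGN192403 calls, 3341, were 1834 with DESeq2 and 1861 without resting AGN192403 replicate 2. KO response differences, 653, were 307 with DESeq2, 318 and 397 without resting KO replicates 1 and 2, 402 without activated control replicate 1 and 374 without activated KO replicate 1. AGN192403 response differences, 2592, were 1395 with DESeq2. Direct differences in activated cells, 2673, were 1441 with DESeq2, 1774 without activated AGN192403 replicate 1, and 1583 and 1754 without activated KO replicates 1 and 2. Direct differences in resting cells, 2186, were 1235 with DESeq2, 1215 without resting AGN192403 replicate 2 and 1299 without resting KO replicate 1.

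With 2 libraries a group, small changes were not detectable for the lowest genes, such as Gorasp1.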
